A study of Mus musculus with 12 samples.

Results

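The genes of mouse chromosome 15 were followed as one group through 12 poly(A) RNA libraries from Dicer-mutant embryonic stem cells. A gene was taken as a member where its position on chromosome 15 (GRCm38) was given by the GENCODE annotation and where it held at least 120 counts summed over the 12 libraries. Of 1259 chromosome 15 genes in the table, 524 reached that number and 735 did not, 362 of these with no count at all. A further 29 genes were left out by name (9) or by family prefix (20), which left 495 members of 47643 genes, 471 of them protein coding. The members were chosen by position and by their summed counts, after earlier results had drawn attention to differences between the replicates of a group on this chromosome. All comparisons of replicate 1 with replicate 2 are therefore descriptions and carry no test. Just inside the count limit lay Tmem74 with 124 counts, Fam19a5 with 122 and Gm6723 with 120. Just outside it lay Has2 with 119 and the genes 1500009C09Rik and Gm5045 with 118 each. The members span the chromosome from Selenop (chr15:3268547-3280508) to Ppp1r1a (chr15:103530279-103538003).

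Each of 6 groups had 2 libraries, called replicate 1 and replicate 2 by the labels. All cells were E14 embryonic stem cells of 129/Ola background, a line derived from the mouse blastocyst, and all grew in serum (15%) with LIF at 100 U/mL on gelatine with puromycin at 1 µg/mL. The groups were wild type (WT), a Dicer knockout (KO) and 4 lines that the labels describe as Dicer-complemented, named SOM, 41584, 41585 and 41589. By the labels, 41584 is similar to WT, 41585 processes neither miRNAs nor siRNAs, and 41589 does not process siRNAs. The labels do not explain the name SOM, the deletion in Dicer1 or the construct of the complemented lines, and they do not say how many clones stand behind a line or whether its 2 libraries were grown separately. The p-values below therefore set group differences against the spread between these libraries, estimated over the 6 groups together. How much of that spread is technical is not known.

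Dicer is the ribonuclease that cuts miRNA precursors and long double-stranded RNA into small RNAs, which guide the silencing of messenger RNAs. Embryonic stem cells in culture can gain or lose whole chromosomes. The genes of a gained chromosome are then read from more copies, and the mRNA levels of many of them tend to shift together, whatever the genes do.

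The sequences upstream of 3 members are shown here because they represent the behaviours met below. Pacsin2 is a membrane-bending protein of endocytosis, and Racgap1 a GTPase-activating protein of cell division. Before any adjustment, both were among the genes that followed the chromosome's level most closely over the libraries. Pdzd2, a protein with several PDZ domains, instead separated KO and 41585 from the other groups. Each run holds the 250 bases before the start of transcription in RefSeq (GRCm38.p6), 5′ to 3′ on the gene's own strand, with matches to 3 promoter motifs in capitals. The Pacsin2 run lies at chr15:83464607-83464856 (minus strand), the Racgap1 run at chr15:99651657-99651906 (minus strand) and the Pdzd2 run at chr15:12739893-12740142 (minus strand).
Pacsin2: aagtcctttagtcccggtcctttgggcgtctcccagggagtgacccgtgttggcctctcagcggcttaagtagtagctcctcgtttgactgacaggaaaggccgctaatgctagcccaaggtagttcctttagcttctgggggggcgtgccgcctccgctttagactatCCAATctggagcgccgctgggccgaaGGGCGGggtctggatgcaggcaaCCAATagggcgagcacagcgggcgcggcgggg
Racgap1: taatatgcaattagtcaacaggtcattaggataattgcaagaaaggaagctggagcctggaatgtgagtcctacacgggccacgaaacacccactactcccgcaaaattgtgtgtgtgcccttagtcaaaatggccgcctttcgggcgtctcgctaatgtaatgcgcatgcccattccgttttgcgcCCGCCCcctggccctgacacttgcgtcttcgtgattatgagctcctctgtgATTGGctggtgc
Pdzd2: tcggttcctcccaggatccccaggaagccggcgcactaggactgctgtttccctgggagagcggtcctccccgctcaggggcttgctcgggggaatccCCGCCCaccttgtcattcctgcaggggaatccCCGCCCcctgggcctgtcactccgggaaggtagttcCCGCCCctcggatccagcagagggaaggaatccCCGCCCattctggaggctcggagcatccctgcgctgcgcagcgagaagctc
The motifs searched were the GC box (GGGCGG or CCGCCC), the CCAAT box (CCAAT or ATTGG) and the TATA box (TATAAA or TTTATA), none of which overlapped another in these runs. Pacsin2 held 1 GC box and 2 CCAAT boxes, Racgap1 1 of each, and Pdzd2 4 GC boxes and no CCAAT box. None of the 3 held TATAAA or TTTATA. RefSeq promoters were matched by symbol for 264 of the 495 members. A GC box was present in 67.8% of those 264, in 60.4% of 9221 promoters of genes on the other autosomes with at least 120 counts, and in 32.9% of all 27025 promoters in the table. For the CCAAT box the shares were 36.7%, 36.9% and 34.5%, and for the TATA box 3.41%, 6.03% and 13%. Beside other genes past the same count, the members' promoters thus held a GC box more often and a TATA box less often, a difference that was not tested.

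The libraries held between 5348401 counted reads (replicate 2 of SOM) and 10428509 (replicate 2 of 41589). The share of mitochondrial transcripts was 3.17 to 5.18%, and the TMM scaling factors, which correct library totals for composition, lay between 0.9039 and 1.079. Levels are given in CPM, read counts relative to the TMM-scaled library total. Dicer1 itself, on another chromosome, stood at 197 and 214 CPM in WT, 28.5 and 44 in KO, 105 and 215 in SOM, 42.3 and 55 in 41584, 29.1 and 39.2 in 41585 and 40.2 and 27.8 in 41589. SOM was thus above KO, while 41584, 41585 and 41589 overlapped KO, so these counts do not show the complementation in those 3 lines, and whether they include transcripts of the construct is not known. The 10 genes listed as embryonic stem cell markers were all detected, and their summed level was 6939 to 7878 CPM in 8 libraries and 6058 to 7152 CPM in replicate 2 of SOM, 41584, 41585 and 41589. The summed markers of fibroblasts or feeders (8 of 8 measured) were 8.62 to 19.8 CPM in those 4 libraries and 7.08 to 41.4 in the other 8. Those of primitive endoderm (6 of 6 measured, Afp at 0) were 3.2 to 8.39 and 4.31 to 20.7, and those of trophectoderm (6 of 6) 25.9 to 41.2 and 32.2 to 88.5. Neural markers (4 of 4) summed to 25.8 to 67.4 and 30.8 to 93.8 CPM, and blood markers (4 of 4, Hbb-bs and Hba-a1 at 0) to 2.44 to 12.2 and 6.16 to 11.9. The part of these markers in the results was not tested.

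Of the 12 libraries, 4 stood apart in the share of their reads that came from the members. Replicate 2 of SOM gave 3.48%, replicate 2 of 41584 gave 3.38%, replicate 2 of 41585 gave 3.48% and replicate 2 of 41589 gave 3.56%. The other 8 libraries gave 4.36% (replicate 1 of SOM) to 5.11% (replicate 1 of 41584), with no overlap. These 4 libraries were noted after the values were seen, and they were not tested against the others as groups. Both libraries of WT (4.9 and 5.1%) and both of KO (4.89 and 4.86%) were among the other 8.

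To place the libraries on one scale, the level of chromosome 15 in a library was taken as the median over members of log2 CPM minus the gene's own median over the 12 libraries, less the same median over genes of the other 18 autosomes. On this log2 scale WT stood at 0.02 and 0.11, KO at 0.12 and 0.10, and SOM at 0.02 and −0.32. 41584 stood at 0.19 and −0.45, 41585 at 0.35 and −0.23 and 41589 at 0.06 and −0.17, replicate 1 first. In each of the 4 complemented lines replicate 2 was thus below replicate 1 and below 0. Several libraries also carried a trend of expression on the GC content and length of the transcript, which explained from 0.00159 to 0.3 of the variance in a library. The other autosomes, which differ in GC content, moved with it. Removing it, a step chosen after the data were seen and fitted on the other autosomes only, gave 0.11 and 0.13 in WT, 0.11 and 0.10 in KO, 0.02 and −0.27 in SOM, 0.16 and −0.30 in 41584, 0.17 and −0.37 in 41585, and 0.14 and −0.28 in 41589. The other autosomes then lay between −0.07 and 0.05 in every library. After this step the 4 low libraries lay between −0.37 and −0.27, and the other 8 between 0.02 and 0.17.

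**Figure D1:**
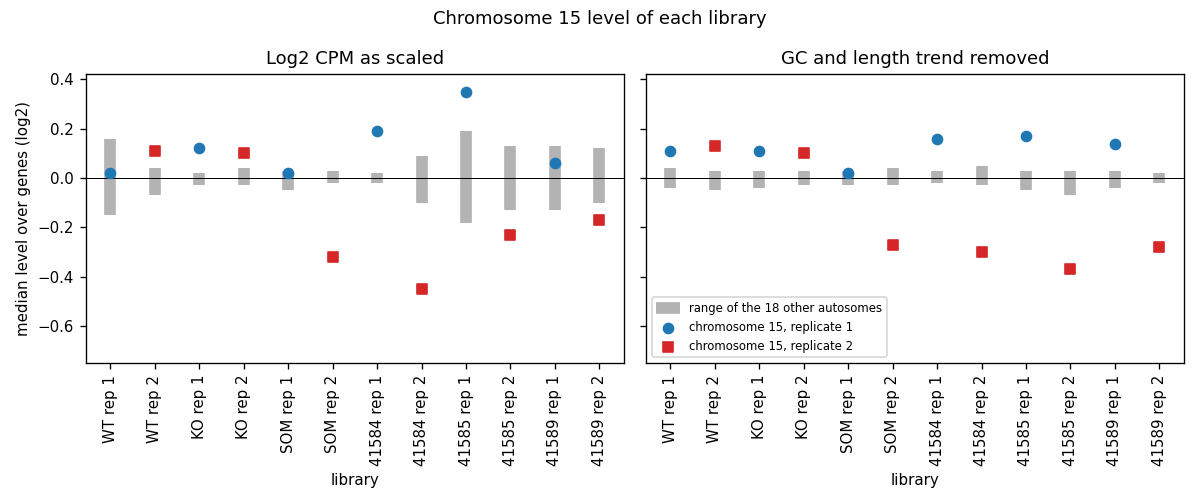
Median level of the 495 chromosome 15 genes in each of the 12 libraries (log2, vertical axis), before and after the GC and length trend was removed. Circles are replicate 1, squares replicate 2 and grey bars the range of the other 18 autosomes. After the step the 4 second replicates of the complemented lines sit between −0.37 and −0.27, and the other 8 libraries between 0.02 and 0.17.

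The difference between replicates was then taken gene by gene, as log2 CPM in replicate 2 minus replicate 1, and given as the median over members less the median over the other autosomes. In WT it was 0.08, inside the range of the other autosomes (−0.17 for chromosome 13 to 0.13 for chromosome 11). KO had the smallest difference, −0.04, beside −0.03 to 0.05 for the other autosomes. In SOM it was −0.40, beside −0.08 to 0.10. In 41584 it was −0.68, beside −0.11 to 0.12, and in 41585 −0.60, beside −0.05 to 0.07. In 41589 it was −0.32, close to the −0.29 of chromosome 13 and above the −0.35 of the X chromosome. Chromosome 15 was thus clear of every other autosome in SOM, 41584 and 41585. It was only just the lowest autosome in KO and in 41589. With 1 library on each side there is no replicate check of any of these values.

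With the GC and length trend removed, the chromosome 15 differences were 0.05 (WT), −0.03 (KO), −0.32 (SOM), −0.56 (41584), −0.56 (41585) and −0.50 (41589). The other autosomes then stayed between −0.05 and 0.05 in WT, −0.02 and 0.05 in KO, −0.07 and 0.05 in SOM, −0.08 and 0.07 in 41584, −0.05 and 0.05 in 41585, and −0.07 and 0.08 in 41589. The X chromosome lay at −0.07 in 41589 and between −0.03 and 0.04 in the other groups. As ratios of replicate 2 to replicate 1 the chromosome 15 values were 1.03 (WT), 0.978 (KO), 0.802 (SOM), 0.679 (41584), 0.679 (41585) and 0.708 (41589). For scale, the arithmetic ratio of 2 gene copies to 3 is 0.667, or −0.585 on the log2 scale. In bulk RNA, fewer cells with a given level and less RNA per cell cannot be told apart. DNA was not measured in these libraries, and copy number, the share of cells carrying any change and other causes of a shift along a whole chromosome cannot be told apart from these counts.

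**Figure D2:**
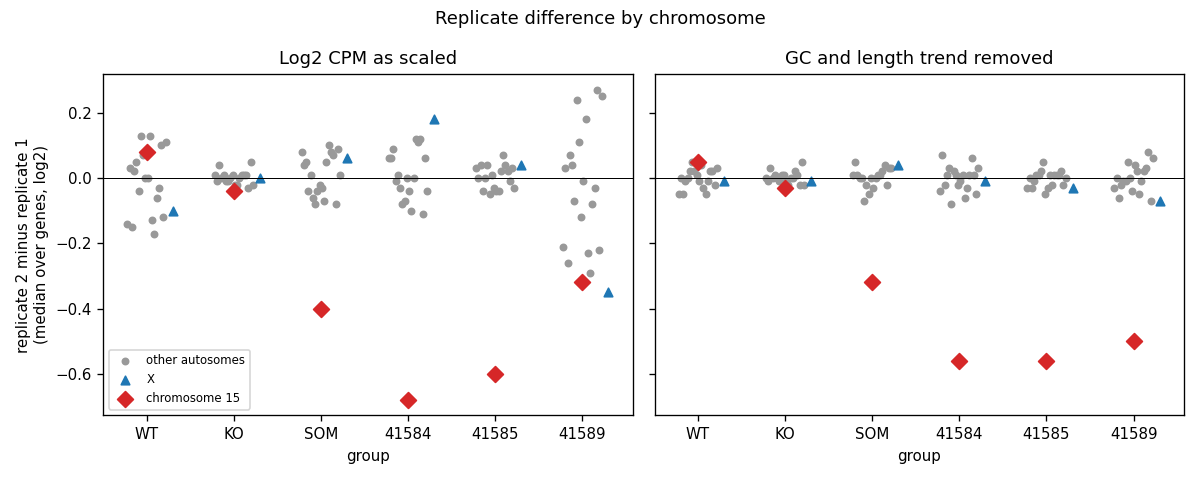
Replicate 2 minus replicate 1 (median log2 difference over the genes of a chromosome, vertical axis) for each group, before and after the GC and length trend was removed. Diamonds are chromosome 15, grey points the other 18 autosomes and triangles the X chromosome. Chromosome 15 lies within or at the edge of the other autosomes in WT and KO, and apart from them in SOM, 41584 and 41585 in both panels. In 41589 it is clear of them only after the step, at −0.50.

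The shift was spread over many members. With the trend removed, the number of the 495 members lower in replicate 2 was 231 for WT (46.7%) and 281 for KO (56.8%), but 382 for SOM (77.2%), 395 for 41584 (79.8%), 461 for 41585 (93.1%) and 401 for 41589 (81%). At least 1.25-fold lower in replicate 2 were 97 members in WT (19.6%, beside 19.8% of all 13290 genes with as many counts) and 72 in KO (14.5%, beside 14.5%). At least 1.25-fold higher were 114 members in WT (23%, beside 19.4% of all genes) and 47 in KO (9.49%, beside 12.8%), so in WT and KO the share was near that of all genes in the lower direction and somewhat apart in the higher. At least 1.25-fold lower were 246 in SOM (49.7%, beside 22.3%), 323 in 41584 (65.3%, beside 33.5%), 373 in 41585 (75.4%, beside 22%) and 322 in 41589 (65.1%, beside 25.5%). Members at least 1.25-fold higher in replicate 2 numbered 41 in SOM (8.28%, beside 21.8% of all genes), 45 in 41584 (9.09%, beside 30.1%), 13 in 41585 (2.63%, beside 17.1%) and 39 in 41589 (7.88%, beside 23.6%). These contrasts are the ones for which the chromosome was chosen, so nothing is read from the excess.

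Across the 4 complemented lines, 261 members (52.7%) were lower in replicate 2 in all 4, and 2 members (0.404%) were lower in none. Among genes of the other autosomes 1479 (12.1%) were lower in all 4 and 1464 (12%) in none. The width of the distribution differed between the lines. The middle 50% of members ran from −0.78 to −0.33 in 41585 and from −1.06 to −0.11 in 41584. The genes of the other autosomes ran from −0.24 to 0.22 in 41585 and from −0.49 to 0.43 in 41584. The replicates of 41584 were thus more scattered gene by gene than those of 41585, on chromosome 15 and on the other autosomes. Over the members, Pearson's r between the 2 libraries of a group was 0.989 in KO, 0.976 in 41585, 0.975 in WT, 0.968 in SOM, 0.938 in 41584 and 0.937 in 41589. These correlations are across genes, which are not independent replicates.

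The chromosome was divided into 11 bins of 10 Mb, which held 8 to 117 members each. As scaled, the bins of 41589 ran from −1.15 (40 to 50 Mb) to 0.33 (70 to 80 Mb), and those of WT from −0.31 to 0.52. The bin from 70 to 80 Mb had the highest median GC content (55.8%) and that from 40 to 50 Mb the lowest (41.3%). With the trend removed the bins of 41585 ran from −0.75 to −0.39, those of 41589 from −0.76 to −0.28, those of 41584 from −0.79 to −0.28 and those of SOM from −0.56 to 0.00. The bins of WT then ran from −0.29 to 0.22 and those of KO from −0.13 to 0.04. In 41584, 41585 and 41589 every bin, from the first to the last, was at or below −0.28. In SOM the first 4 bins were uneven, at 0.00 (0 to 10 Mb, 23 members), −0.23, −0.56 and −0.13 (30 to 40 Mb, 44 members), and the 7 bins from 40 Mb to the end lay between −0.53 and −0.30.

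Bins at or below −0.3 numbered 8 of 11 on chromosome 15 in SOM, 9 in 41584, 11 in 41585 and 10 in 41589. These bins were counted after rounding, and those of the other autosomes below before rounding. In SOM the bins starting at 50, 70, 90 and 100 Mb stood at −0.30 once rounded. The 8 of SOM may therefore be too many for the cut used on the other autosomes. On the other autosomes, 239 bins of at least 8 genes were available, of which 1 was as low in SOM, 13 in 41584, 1 in 41585 and 0 in 41589. The 13 in 41584 are 5.44% of those bins, and the lowest of them (chromosome 14, 0 to 10 Mb, 16 genes) stood at −0.53. Without removing the trend, 80 of the 239 bins were as low in 41589, beside 8 of 11 on chromosome 15.

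**Figure D3:**
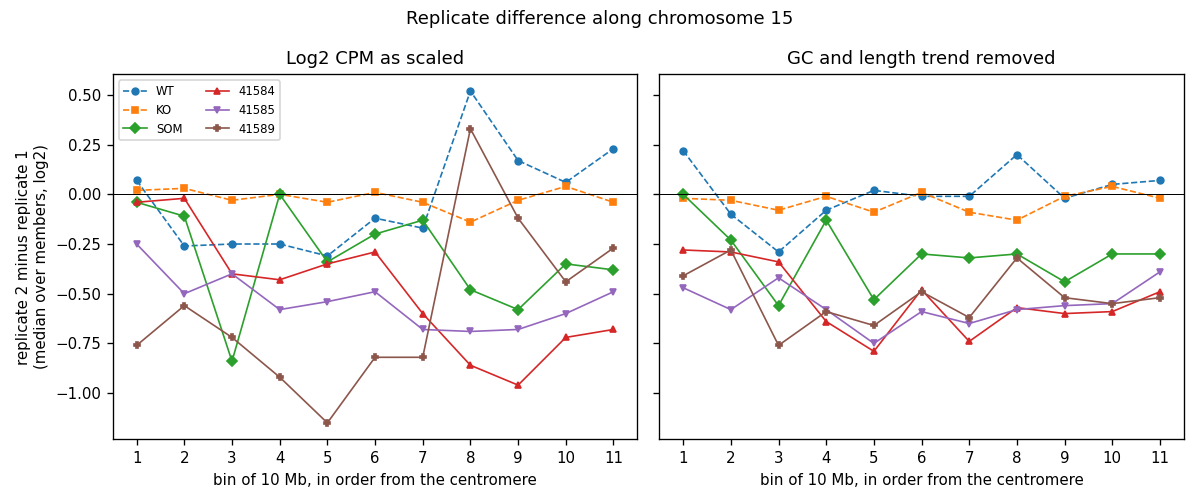
Replicate 2 minus replicate 1 (median log2 difference over members, vertical axis) in the 11 bins of 10 Mb of chromosome 15, ordered from the centromere, for the 6 groups. As scaled, the line of 41589 runs from −1.15 to 0.33. With the GC and length trend removed the 41584, 41585 and 41589 lines lie at or below −0.28 in every bin, and those of WT and KO lie on either side of 0.

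The members' differences were also split by their own properties. In 41589 the 165 members of lowest GC content (median 0.443 as a fraction) had a median difference of −0.95, the 165 in the middle −0.24 and the 165 of highest GC content (0.572) 0.49. After the trend was removed these became −0.54, −0.51 and −0.43. In 41585 the same classes ran from −0.49 to −0.73 before and −0.61 to −0.51 after. By abundance, the 165 members of lowest mean (median 3.69 CPM) and the 165 of highest mean (133 CPM) differed by −0.58 and −0.53 in 41585, by −0.56 and −0.50 in 41589, by −0.72 and −0.42 in 41584 and by −0.23 and −0.34 in SOM, with the trend removed. With the trend removed, all 3 classes of abundance were below 0 in each of the 4 lines. As scaled, the classes of lowest, middle and highest mean in 41589 stood at −0.18, 0.03 and −0.62, so the middle class was not lower there.

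Individual members with a mean of at least 20 CPM (260 genes) were correlated with the chromosome 15 level over the 12 libraries. With the GC and length trend removed from both, the median Pearson correlation was 0.60, with the middle 50% from 0.32 to 0.78. For 6408 genes of the other autosomes the median was −0.19 (−0.45 to 0.12). The level is computed from the members themselves, so this is a description only. The 5 genes that followed the level as scaled most closely were Pacsin2 (r = 0.96), Derl1 (0.91), Xrcc6 (0.91), Racgap1 (0.91) and Slc48a1 (0.90). These values are as scaled, unlike the medians above, and the order differed with the trend removed. Emc2, for example, had 0.59 as scaled and 0.97 with the trend removed.

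Pacsin2, whose promoter is shown above, stood at 106 and 114 CPM in WT, 129 and 127 in KO, 120 and 90 in SOM, 143 and 72.8 in 41584, 159 and 82.8 in 41585, and 111 and 99.2 in 41589. The 4 second replicates of the complemented lines were its 4 lowest libraries. Derl1 (chr15:57869502-57892448), part of the channel that draws misfolded proteins out of the endoplasmic reticulum, stood at 71.6 and 68.5 CPM in WT, 72.8 and 69.7 in KO, 53.6 and 47 in SOM, 65.5 and 41 in 41584, 76.1 and 41.8 in 41585, and 62.6 and 46.7 in 41589. Its 4 lowest libraries were the same, with replicate 1 of SOM next above them. Xrcc6 (chr15:81987835-82040085), the Ku70 subunit that binds broken DNA ends, stood at 140 and 151 CPM in WT, 151 and 133 in KO, 156 and 95.4 in SOM, 171 and 90.5 in 41584, 157 and 100 in 41585, and 167 and 103 in 41589. In Xrcc6 the 4 low libraries stood at 90.5 to 103 CPM and the other 8 at 133 to 171 CPM. The genes of this paragraph were named because they followed the level, so such gaps come with that choice. Slc48a1, a haem transporter, ranged from 11 to 18.6 CPM in the 4 and from 21.4 to 34.1 in the others.

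Racgap1 (chr15:99620496-99651656) stood at 194 and 207 CPM in WT, 243 and 250 in KO, 216 and 155 in SOM, 242 and 172 in 41584, 273 and 170 in 41585, and 219 and 168 in 41589. With the trend removed its correlation with the level was 0.65, and its difference in 41589 was −0.11, in size the smallest of the 4 lines. Atf4, the transcription factor of the integrated stress response, stood at 449 and 351 CPM in WT, 415 and 402 in KO, 388 and 214 in SOM, 477 and 233 in 41584, 425 and 209 in 41585, and 336 and 247 in 41589. In Atf4 the 4 low libraries (209 to 247 CPM) did not overlap the others (336 to 477). It was named from the list of transcription factors, not for following the level. Sp1 and Atf1, named from the same list, are not shown, so this gap is not read as typical of that list.

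The lists of chromosome 15 genes by function showed the same direction in most cases. With the trend removed, the shares of all 495 members lower in replicate 2 were 77.2% in SOM, 79.8% in 41584, 93.1% in 41585 and 81% in 41589. They were 46.7% in WT and 56.8% in KO. The lists are parts of these members and were not tested against them, so nothing is read from the counts about a function. Of 17 genes of translation and RNA handling, 16 were lower in replicate 2 of SOM, 14 in 41584, 17 in 41585 and 12 in 41589 with the trend removed, beside 4 in WT and 11 in KO. Pabpc1, the poly(A)-binding protein that protects and helps translate mRNAs, stood at 6099 and 5056 CPM in WT, 3374 and 3365 in KO, 4229 and 2837 in SOM, 4569 and 3117 in 41584, 2779 and 1815 in 41585, and 4880 and 2323 in 41589. Hnrnpa1, a splicing regulator, had trend-removed differences of −0.36, −0.99, −0.65 and −0.29 in SOM, 41584, 41585 and 41589, beside 0.63 in WT and −0.05 in KO. Of 16 genes of chromatin and cohesin, 12, 13, 15 and 14 were lower in the 4 lines in the same order, beside 4 in WT and 5 in KO. Their medians in the 4 lines were −0.13, −0.26, −0.47 and −0.46. Rad21, the kleisin subunit of cohesin, had differences of −0.09, −0.15, −0.47 and −0.46, so it moved little in SOM and 41584.

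Of 19 transcription factors, 14 were lower in replicate 2 of SOM, 11 in 41584, 18 in 41585 and 18 in 41589, beside 10 in WT and 12 in KO. Myc, the growth-promoting factor whose locus is often gained in tumours, ran across this pattern, with 2.78 and 14.9 CPM in WT, 11.7 and 13.2 in KO, 43.4 and 23.9 in SOM, 11.2 and 28.4 in 41584, 13.6 and 8.49 in 41585, and 24.7 and 32.2 in 41589. As scaled, it was higher in replicate 2 in WT, KO, 41584 and 41589 and lower in SOM and 41585, though in 41589 the difference turned to −0.07 with the trend removed. Its order over the libraries as scaled was not that of the chromosome. With the trend removed, 9, 8, 11 and 9 of 11 genes of genome maintenance and division were lower in SOM, 41584, 41585 and 41589, beside 5 in WT and 7 in KO. Of 11 metabolic genes 11, 11, 9 and 10 were lower in those lines, beside 4 in WT and 7 in KO. Of 11 receptors, ligands and kinases, 6, 10, 11 and 9 were lower, beside 3 in WT and 5 in KO. The 3 Ly6 genes measured were lower in all 4 lines except 1 of them in 41585, and they were lower in WT and KO as well. Among them, Ly6a, a cell surface marker also called Sca-1, stood at 22.3 and 15.5 CPM in WT, 103 and 95.3 in KO, 7.2 and 2.63 in SOM, 16.6 and 1.87 in 41584, 62.5 and 11.1 in 41585, and 7.06 and 2.37 in 41589. Tuba1a, Tuba1b and Tuba1c, near-identical tubulin genes between which reads may be split, were lower in all 3 in SOM and 41585 and in 2 of 3 in 41584, but in 1 of 3 in 41589.

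The 2 members with the highest mean CPM in each bin, 22 genes in all, were lower in replicate 2 in 19 cases in SOM, 17 in 41584, 22 in 41585 and 22 in 41589 with the trend removed, beside 7 in WT and 13 in KO. CPM is not corrected for transcript length, so these are not ranked against each other. As scaled, 14, 12, 22 and 21 were lower in those lines.

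Some members went against the chromosome. Grhl2 (chr15:37233036-37363569), a transcription factor of epithelial cells, stood at 31.5 and 35.8 CPM in WT, 161 and 119 in KO, 19.4 and 68.4 in SOM, 14.3 and 53.3 in 41584, 128 and 96 in 41585, and 17.3 and 53 in 41589. In SOM, 41584 and 41589, replicate 2 was at least 3-fold above replicate 1, while in 41585 it was below. KO and 41585 were the groups of highest Grhl2, but the fold of KO against WT did not pass the test over all genes (2.06 ± 0.64, edgeR adjusted p = 0.0521). Dpys, an enzyme of pyrimidine breakdown, stood at 5.48 and 21.6 CPM in SOM, 6.26 and 11.5 in 41584 and 5.13 and 14.7 in 41589, replicate 1 first. It was the other way in 41585 (41.3 and 36.1), WT (18.4 and 12) and KO (54.2 and 31.3). Zhx1, a homeobox repressor, was higher in replicate 2 of all 4 lines, with 21.4 and 31.8 CPM in SOM, 7.03 and 37 in 41584, 41.4 and 53.4 in 41585 and 18.4 and 23.5 in 41589. Kif21a, a kinesin motor, stood at 22.5 and 31.5 CPM in 41585 and at 30.2 and 7.31 in 41584. Mcrs1, a nuclear protein of the NSL complex, stood at 15.2 and 45.8 CPM in 41589 and at 10.4 and 23.5 in WT. In KO, where the chromosome hardly moved, Kdelr3 (1.1 and 3.69 CPM) and Aard (21.5 and 42.5) went farthest against it. Kdelr3 was eligible by its mean over all libraries (36.8 CPM), but it had only 33 counts in the KO libraries. Nothing is therefore read from its rise there.

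**Figure D4:**
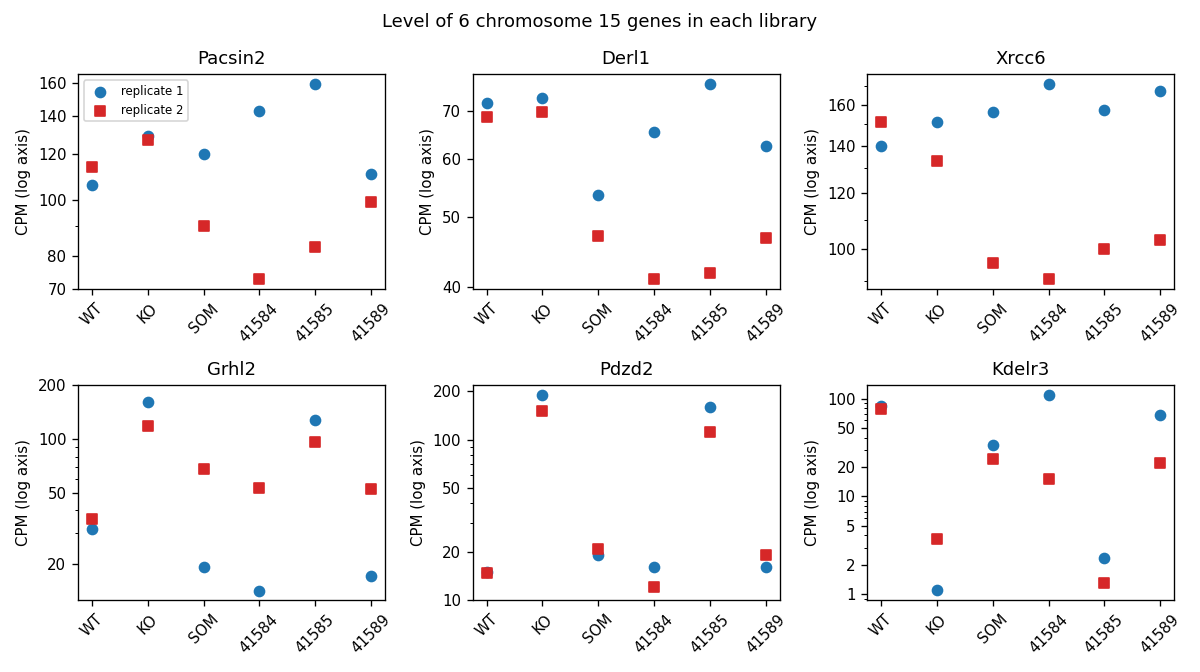
Level (CPM, log axis) of 6 chromosome 15 genes in each library, by group, with circles for replicate 1 and squares for replicate 2. Pacsin2, Derl1 and Xrcc6 are lower in replicate 2 of SOM, 41584, 41585 and 41589, Grhl2 is higher there in all but 41585, and Pdzd2 and Kdelr3 separate KO and 41585 from the other groups.

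The groups were then compared with each other, fitting edgeR over all 14629 genes that passed its filter on low counts, which kept all 495 members. In KO against WT the loss of Dicer cannot be told apart from differences of clone or culture, which the labels do not describe. There 48 members were called at an adjusted p under 0.05. Of these 35 rose (7.07% of members, beside 7.29% of all genes tested) and 13 fell (2.63%, beside 5.9%). The median fold of the members was 0.07 on the log2 scale and that of all genes 0.00. Pdzd2 stood at 15 and 14.7 CPM in WT and at 190 and 150 in KO, with no overlap. It rose by 3.52 ± 0.27 (SE, n = 2 against 2, edgeR adjusted p = 7.09e-05) and passed the test whichever library was left out (largest adjusted p of edgeR 0.00426). Enpp2, which makes the signalling lipid lysophosphatidic acid, stood at 0.309 and 0.219 CPM in WT and 18.2 and 13.2 in KO, and rose by 5.84 ± 0.80 (edgeR adjusted p = 0.0013, at most 0.0287 with a library left out). Tuba1a rose by 2.06 ± 0.32, with the reservation on near-identical tubulins (edgeR adjusted p = 0.00218, at most 0.0389).

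Oc90, which encodes a protein of the inner ear's otoconia, had 145 counts in the KO libraries and 2 in WT, a ratio of 77 with a 95% interval of 20.9 to 642 from counting error alone. Apol6, an apolipoprotein L family gene, stood at 0.773 and 1.2 CPM in WT and 19.1 and 9.39 in KO. Its edgeR adjusted p was 0.025 with all libraries and reached 0.182 with 1 left out. Among the genes that fell was Kdelr3, a receptor that returns proteins to the endoplasmic reticulum, from 84 and 78.4 CPM in WT to 1.1 and 3.69 in KO, with no overlap. Hoxc13, a homeobox gene of hair and nail, stood at 10.1 and 3.72 CPM in WT and 0.122 and 0.616 in KO. Mov10l1, a helicase of germline piRNA formation, and Dmc1, a recombinase of meiosis, fell by 2.82 ± 0.78 and 2.54 ± 0.69. Dmc1 went from 75 and 58.1 CPM in WT to 10.5 and 12.3 in KO, and Mov10l1 from 103 and 47.4 to 12 and 9.24. For Kdelr3, Hoxc13, Mov10l1 and Dmc1 the largest edgeR adjusted p with 1 library left out was 0.0703, 0.13, 0.217 and 0.21.

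Of the 48 calls, 5 held whichever library was left out. They were Pdzd2, Enpp2 and Tuba1a together with Trib1 and Asb8, the last pair picked after their values were seen. The share of all called genes that held with a library left out or with an offset was not computed, here or for the comparisons below. Nothing particular to chromosome 15 is therefore read from how many calls of members held. Trib1, a pseudokinase that steers proteins to degradation, stood at 11.8 and 15.3 CPM in WT and 71.5 and 62.2 in KO. Asb8, a substrate adaptor of a ubiquitin ligase, stood at 23.4 and 16.2 CPM in WT and 58.4 and 56.7 in KO. The calls in the lists were 1 of 19 transcription factors (Nr4a1, higher), 1 of 16 chromatin genes (Cbx6, a Polycomb protein, higher), 1 of 11 genes of genome maintenance and division (Skp2, a ubiquitin ligase subunit that promotes S phase, higher), 1 of 3 tubulins and the 1 Hox gene measured. Of the 17 translation genes, 11 receptors, ligands and kinases, 3 Ly6 genes and 11 metabolic genes edgeR called 0, with 1, 3, 3 and 2 of them at an unadjusted p under 0.05 and 1, 1, 2 and 1 called by DESeq2. When 1 of the 4 libraries of WT and KO was left out, 7 to 20 members were called, the fewest without replicate 1 of either group (1.41% each, beside 1.59% of all genes without that of WT and 1.56% without that of KO) and the most without replicate 2 of KO (4.04%, beside 3.56%). When the 4 libraries of low chromosome 15 level, none of them WT or KO, were left out of the fit, 184 members were called (101 higher, 83 lower, 37.2%, beside 33.5% of all genes). With the chromosome's level given to the fit as an offset, 65 were called (37 higher, 28 lower, 13.1%, beside 13.7% of all genes), and with the GC and length trend as an offset 77 (48 higher, 29 lower, 15.6%, beside 19.7%).

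For 41585 against WT, 140 members were called. Of these 80 rose (16.2%, beside 16.3% of all genes) and 60 fell (12.1%, beside 12.9%), with a median of 0.01 beside 0.00. Pdzd2 stood at 159 and 112 CPM in 41585 and was higher than in WT by 3.19 ± 0.27 on the log2 scale (edgeR adjusted p = 0.000132). Kdelr3 stood at 2.34 and 1.29 CPM and fell by 5.46 ± 0.91 (edgeR adjusted p = 0.00266, at most 0.0253 with a library left out). Oc90 had 111 counts beside 2 in WT, a ratio of 53.1 (14.4 to 444, counting error alone). Apol6 stood at 19.9 and 16.9 CPM and Hoxc13 at 0.117 and 0.386, and both were called. Of 19 transcription factors 6 rose and 1 fell, of 16 chromatin genes 3 rose and 4 fell, and of 17 translation genes 2 rose and 2 fell. All 3 tubulins rose, and so did 1 of 11 receptors, ligands and kinases (Mapk11), 1 of 3 Ly6 genes (Ly6e) and 1 of 11 metabolic genes (Tst), and the Hox gene measured fell. Of the 11 genes of genome maintenance and division edgeR called 0, with 2 at an unadjusted p under 0.05 and 0 called by DESeq2. The fit without the 4 low libraries, which leaves 41585 with its replicate 1 alone, called 246 members (158 higher, 88 lower, 49.7%, beside 40.9% of all genes), and 79 of the 140 calls held with the GC and length trend as an offset. With 1 library left out, 9 to 86 members were called, the fewest without replicate 1 of WT (1.82%, beside 2.74% of all genes) and the most without replicate 2 of WT (17.4%, beside 17.9%), and 7 of the 140 held in every case. The offset for the trend also changed the split, to 48 higher and 64 lower of 112 (22.6%, beside 26.2% of all genes), and the level offset to 85 and 87 of 172 (34.7%, beside 30.1%).

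KO and 41585 stood on the same side of WT for these genes, but both comparisons use the WT libraries. Between 41585 and KO, 0 members and 0 of 14629 genes passed (0%) by edgeR. At an unadjusted p of edgeR under 0.05 were 32 members, beside 995 of all genes. DESeq2 called 0 members, beside 1 of all genes. The comparison of 41585 with 41584, a line described as similar to WT, shares no library with KO against WT. There 59 members were called. Of these 42 rose (8.48%, beside 7.65% of all genes) and 17 fell (3.43%, beside 5.07%), with a member median of 0.18 beside −0.01. Called in both KO against WT and 41585 against 41584 were 34 members, 70.8% of the first and 57.6% of the second, and all 34 had the same direction. Over all genes the shares were 55.4% and 57.4%. The members' shares are thus close to those of all genes for the second comparison and higher for the first, and the difference was not tested.

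Pdzd2 stood at 16 and 12 CPM in 41584 beside the 159 and 112 of 41585, a difference of 3.27 ± 0.27 (edgeR adjusted p = 0.000159, at most 0.00219 with a library left out). A4galt, the enzyme that makes the glycolipid Gb3, stood at 8.18 and 1.24 CPM in 41584 and 55.8 and 57.9 in 41585, and rose by 3.56 ± 0.57 (edgeR adjusted p = 0.00333, at most 0.0161). Kdelr3 stood at 109 and 14.9 CPM in 41584, a wide gap between replicates, and at 2.34 and 1.29 in 41585, and it fell by 5.08 ± 0.90 (edgeR adjusted p = 0.00562, at most 0.0464). Nipal2, a predicted magnesium transporter, Oc90 and Apol6 also rose, with edgeR adjusted p of 0.0141, 0.0169 and 0.0293. Rnd1, a small GTPase, Selenop, a selenium carrier protein, and Sept3, a septin of neurons, fell by 2.44 ± 0.55, 2.07 ± 0.53 and 1.84 ± 0.55. None of these 6 kept its call in every fit that left out a library. The 9 members that did were Pdzd2, A4galt, Kdelr3 and, picked after their values were seen, Dazap2, Prr13, Trib1, Galnt6, Parp10 and Arhgap8. Of the lists, 3 of 19 transcription factors rose (Nr4a1, Foxh1 and Nfe2), 2 of 16 chromatin genes (Kmt2d and Cbx6), 1 of 17 translation genes (Exosc4, a subunit of the RNA exosome), 1 tubulin (Tuba1a), 1 Ly6 gene (Ly6e) and 1 metabolic gene (Tst), and Hoxc13 fell. Of the 11 genes of genome maintenance and division and the 11 receptors, ligands and kinases edgeR called 0, with 1 and 4 at an unadjusted p under 0.05 and 0 and 1 called by DESeq2.

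Both groups of this comparison hold a library of low chromosome 15 level, and its member median moved with the library left out. The median was 0.60 without replicate 1 of 41584, −0.08 without replicate 2 of 41584, −0.21 without replicate 1 of 41585 and 0.44 without replicate 2 of 41585. Direction and size of the median thus depended on which library stood for its line. The numbers of calls moved too, to 74 (68 higher, 6 lower, 14.9%, beside 11.9% of all genes) without replicate 1 of 41584 and 44 (19 higher, 25 lower, 8.89%, beside 9.57%) without replicate 2 of 41584. They were 11 (10 higher, 1 lower, 2.22%, beside 2.3%) without replicate 1 of 41585 and 30 (28 higher, 2 lower, 6.06%, beside 3.71%) without replicate 2 of 41585. With the chromosome's level as an offset, 51 of the 59 calls held and none changed sign, while the split became 39 higher and 45 lower of 84 (17%, beside 13.6% of all genes). Dpys (adjusted p of edgeR 0.0936) and Apol6 (0.053) were among the 8 that no longer passed. Without the 4 low libraries this comparison has 1 library on each side, and the spread comes from WT and KO alone. The calls of that fit were therefore not taken as a check on the 59.

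For SOM, 41584 and 41589 against WT, and for 41589 against 41584, edgeR called 0 members and 0 of 14629 genes (0%). Members at an unadjusted p under 0.05 numbered 102, 16, 40 and 4 in that order, beside 3175, 706, 1719 and 103 of the 14629 genes. DESeq2 called 22, 0, 0 and 0 members (4.44% for SOM, beside 4.66% of all genes). The member medians were −0.24 for SOM (all genes −0.03), −0.14 for 41584 (0.00), −0.13 for 41589 (0.00) and 0.05 for 41589 against 41584 (0.01). Leaving out replicate 2 of a line took its median against WT to −0.07 in SOM, 0.09 in 41584 and 0.00 in 41589. Leaving out replicate 1 took it to −0.45, −0.53 and −0.33. For 41589 against 41584 the median was 0.49 without replicate 1 of 41584, −0.23 without replicate 2 of 41584, −0.18 without replicate 1 of 41589 and 0.13 without replicate 2 of 41589. In the fits of SOM, 41584 and 41589 against WT without replicate 1, the line kept only its library of low chromosome 15 level. Their lower medians thus follow from the replicate difference for which the chromosome was chosen, and nothing is read from them. For SOM against WT the fit without the 4 low libraries called 111 members (37 higher, 74 lower, 22.4%, beside 17.7% of all genes). For 41585 against WT the median was −0.34 without replicate 1 of 41585 and 0.29 without replicate 2, and for 41585 against KO −0.46 and 0.10. In the fits that leave 1 library in a group, that library is assumed to vary like the other groups.

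**Figure D5:**
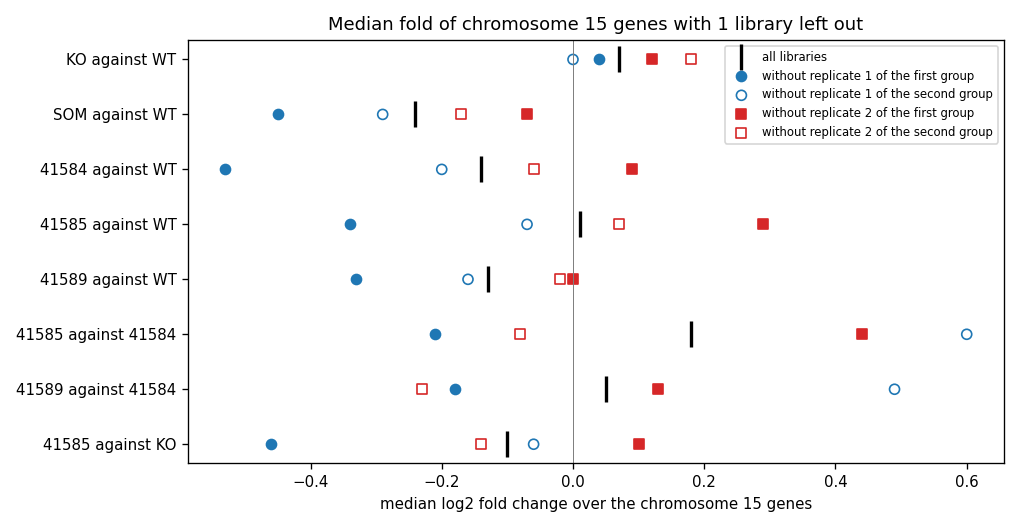
Median log2 fold change of the 495 chromosome 15 genes (horizontal axis) in 8 group comparisons. Bars are the fits with all libraries and symbols the fits without 1 library, filled where it belonged to the first group named and open where to the second. For 41585 against 41584 the symbols run from −0.21 to 0.60 around a bar at 0.18.

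The spread that the fit estimated between replicates, as a biological coefficient of variation, had a median of 0.294 over the members and 0.273 over genes of the other autosomes, whose medians ranged from 0.24 (chromosome 18) to 0.299 (chromosome 7). With the chromosome 15 level as an offset, the members' median was 0.263 and that of the other autosomes 0.272. The members' spread was thus within the range of the other autosomes in the first fit. The offset is computed from the members and given to them alone, so it lowers their spread by construction. Nothing is read from the lower value in the second fit.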

How the data were processed

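Poly(A) RNA was measured in 12 libraries of mouse E14 embryonic stem cells, made with TruSeq reagents from 1 µg of RNA by a reverse-stranded protocol, per the labels' protocols. Reads were aligned with STAR 2.4.2a to mm10 (GRCm38), per the submitters' processing notes. Neither source names the counting program or its annotation. The authors deposited unnormalized counts of reads for 47643 Ensembl genes, of which GENCODE M21 (GRCm38) placed 47224 and left 419 without a position. Coordinates are 1-based.

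The members, lists and rules for naming genes were chosen with earlier results of these data known. Named genes were the 2 members of highest mean CPM in each 10 Mb bin, up to 3 of each functional list and Myc, the 5 that followed the chromosome's level most closely, the 2 in each group outside the autosomes' range that went farthest against it (at least 20 CPM in both cases), and, among calls, the 4 and 4 (KO against WT, 41585 against 41584) or 2 and 2 of largest fold with at least 5 CPM. Log2 CPM used TMM factors and a prior count of 2. The GC and length trend (splines with 4 degrees of freedom each on GC content and log2 length of the longest transcript) was added after seeing the data, as were the fits without 4 libraries. Groups were compared with edgeR 4.0.16 (quasi-likelihood, robust, 1 mean per group, all 12 libraries, 6 residual degrees of freedom) on R 4.3.3, with Benjamini-Hochberg adjustment over 14629 genes, a threshold of 0.05 and folds as log2 ± SE. DESeq2 1.42.0 was an alternative. The scripts were tested on simulated data. Low-count ratios have exact binomial 95% intervals, which cover counting error only.

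Other scalings, filters, a replicate block and leaving out each library were tried as well.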

Additional observations from a re-analysis of the deposited data

How the results depend on the processing

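The replicate differences have no value with a library left out, since both libraries are needed. From summed reads in place of the median they were −0.01 in KO, −0.33 in SOM and −0.50 in 41589. With plain library totals and no subtraction, 41584 gave −0.94. With the GC and length trend removed, SOM gave −0.32, 41584 −0.56 and 41585 −0.56, and the range of the chromosome 15 level over the 12 libraries went from 0.80 to 0.54. No replicate difference changed sign under the alternatives run (count minimum, prior count, scaling, mean, summed reads, left-out genes put back, trend removed).

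Counts of members called moved more. For KO against WT the 48 became 109 without a low-count filter, 77 with the trend as an offset, 184 without the 4 low libraries, 80 by DESeq2 and 182 when only the 2 groups were fitted. For SOM against WT the 0 became 71 without the filter, 111 without the 4 libraries, 22 by DESeq2 and 102 with only the 2 groups. For 41585 against WT the 140 became 246 without the 4 libraries and 223 with only the 2 groups. For 41585 against 41584 the 59 became 121 without the filter, 121 without the 4 libraries, 91 by DESeq2 and 11 with only the 2 groups. Without the filter 41584 against WT gave 3 (0.606%, beside 0.488% of all genes) and 41589 against WT 15 (3.03%, beside 2%). For 41585 against KO it gave 3 (0.606%, beside 0.44%), and the fit of only the 2 groups gave 14 (2.93%, beside 4.07%). In the same fits the shares of members called stood beside those of all genes as 22% and 10.9%, 15.6% and 19.7%, 37.2% and 33.5%, 16.2% and 16.9%, and 37.1% and 35.9% for KO against WT, in the order above. For SOM against WT they were 14.3% and 4.97%, 22.4% and 17.7%, 4.44% and 4.66%, and 21.6% and 15.7%, and for 41585 against WT 49.7% and 40.9%, and 45.6% and 43.5%. For 41585 against 41584 they were 24.4% and 11.4%, 24.4% and 19.8%, 18.4% and 18.1%, and 2.3% and 3.01%. Without the filter the share of all genes is over a larger set of genes. The fit without the 4 libraries leaves 1 library in each of SOM, 41584, 41585 and 41589. Its spread then comes from WT and KO alone, so its counts are not a check on those of the main fit. The cause of the changes was not tested.

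With 1 library left out, the counts ran from 7 to 20 for KO against WT, 0 to 4 for 41584 against WT, 9 to 86 for 41585 against WT, 0 to 23 for 41589 against WT and 11 to 74 for 41585 against 41584, and were 0 to 0 for SOM against WT, 41589 against 41584 and 41585 against KO. No label ties same-numbered libraries together, so the numbers were not taken as pairs. The correlation over genes of the replicate differences of 2 groups ran from −0.09 to 0.55, over 0.1 in 5 of 15 pairs. These were WT with 41589 (0.55), 41584 with 41585 (0.35), SOM with 41585 (0.28), SOM with 41584 (0.26) and 41584 with 41589 (0.17). All but the first are pairs of complemented lines, while SOM with 41589 (0.02) and 41585 with 41589 (−0.03) were near 0. The source of these correlations was not tested. A replicate block gave 70 for KO against WT (14.1%, beside 16% of all genes) and 176 for 41585 against WT (35.6%, beside 31.8%). It gave 75 for 41585 against 41584 (15.2%, beside 14.8%) and 0 for the other 5 comparisons.

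Depth limits the genes of low count: the members just past the limit of 120 counts average 10 a library.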

Other observations

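On the other autosomes, 15 of 239 bins of 10 Mb were at or below −0.3 in replicate 2 minus replicate 1 in at least 1 of the 4 complemented lines, and 10 at or above 0.3, once the GC and length trend was removed. The number of bins that low, or that high, in 2 or more lines was 0. In 41584, where gene by gene scatter was widest, bins as low as −0.51 (chromosome 3, 0 to 10 Mb, 12 genes), −0.50 (chromosome 6, 20 to 30 Mb, 31 genes) and −0.45 (chromosome 8, 50 to 60 Mb, 12 genes) occurred, and bins as high as 0.48 (chromosome 5, 50 to 60 Mb, 15 genes). The first of these stood at −0.06, 0.13 and −0.12 in SOM, 41585 and 41589, and the second at −0.11, 0.18 and −0.05. The bin of chromosome 13 from 50 to 60 Mb (69 genes) stood at −0.41 in 41584 and at 0.01, −0.05 and 0.02 in the same 3 lines. The bin at the end of chromosome 11 (120 to 130 Mb, 49 genes) stood at 0.38 in 41589 and at 0.98 before the trend was removed.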
